A study of Homo sapiens with 4 samples.

Results

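The heat shock protein 70 (HSP70) chaperones HSPA1B and HSPA2 and the J proteins DNAJB1, DNAJA1 and DNAJA3, which work with HSP70s, were followed in human melanoma cells exposed to electric pulses. Every oligonucleotide on the array that carried one of these symbols was taken. This gave 6 of the 3048 oligonucleotides, for 5 of the 1892 gene symbols on the array, since HSPA1B had 2 oligonucleotides and the other genes 1 each. The cells were SK-MEL28, an established line from a malignant melanoma. They received either ECT pulses, of the kind used for electrochemotherapy (8 pulses of 100 μs at 1300 V/cm, 1 Hz), or EGT pulses, of the kind used for electrogene therapy (8 pulses of 5 ms at 600 V/cm, 1 Hz). RNA was taken 16 h later. RNA of exposed cells was labelled with Cy5 and RNA of untreated SK-MEL28 cells with Cy3 on every array, and each pulse type had 2 arrays, named here ECT 1, ECT 2, EGT 1 and EGT 2.

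Some limits apply to all values below. Since no array had the dyes exchanged, the response of a gene and a dye bias of its oligonucleotide cannot be told apart. The untreated cells served both comparisons. Nothing in the labels tells if the 2 arrays of one pulse type came from separate cultures. The study's methods describe the hybridisations as run in duplicate and name no separate cultures, so the arrays may be repeat hybridisations, and p-values then measure only the spread between these arrays, which may be technical. The source label of ECT 1 names only the pulses, whereas those of ECT 2, EGT 1 and EGT 2 also name cisplatin, a platinum drug that the study's methods do not list for these cells. Any part of that drug in the results cannot be told apart from the arrays that carry the label.

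HSP70 proteins bind exposed hydrophobic stretches of unfolded proteins and release them in a cycle driven by ATP. J proteins carry a J domain that stimulates the ATPase of HSP70 and bring substrates to it, and different J proteins serve HSP70s of different compartments. When unfolded proteins accumulate, as in heat, heat shock factor 1 (HSF1) binds heat shock elements, runs of GAA units in alternating orientation, in the promoters of inducible chaperone genes. HSPA1B, with its near-identical neighbour HSPA1A, and DNAJB1 are classical genes of that response, whereas HSPA2 is best known from male germ cells.

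Because HSPA1B and DNAJB1 are the classical inducible members, their promoters are shown before the values. They are the 250 bases upstream of a RefSeq start site on GRCh38.p14, read 5′ to 3′ on the strand of the gene, with each GAANNTTC (a pair of inverted GAA units) in capitals. The first is chr6:31827488-31827737 on the plus strand, upstream of HSPA1B. The second is chr19:14518398-14518647 on the minus strand, upstream of the middle one of 3 listed DNAJB1 start sites, and is shown because it held the most matches of the 3.
HSPA1B: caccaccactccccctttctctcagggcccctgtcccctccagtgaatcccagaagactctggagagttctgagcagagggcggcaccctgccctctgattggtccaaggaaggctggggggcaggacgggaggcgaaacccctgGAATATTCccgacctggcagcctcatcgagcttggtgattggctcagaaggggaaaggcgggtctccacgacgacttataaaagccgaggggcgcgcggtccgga
DNAJB1: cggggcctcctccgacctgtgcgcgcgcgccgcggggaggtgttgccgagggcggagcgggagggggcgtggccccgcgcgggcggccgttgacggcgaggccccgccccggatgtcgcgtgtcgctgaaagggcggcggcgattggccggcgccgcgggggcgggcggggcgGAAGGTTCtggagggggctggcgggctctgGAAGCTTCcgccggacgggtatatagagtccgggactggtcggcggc
The HSPA1B match began 105 bases before the start and the DNAJB1 matches began 77 and 47 bases before it.

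All 5 genes had an entry in the promoter table. In windows of 250 bases before to 50 after the start, GAANNTTC was found for 3 of the 5 genes, HSPA1B, DNAJB1 and DNAJA1, and in 4 of the 7 windows of the 5 genes. Of the other DNAJB1 windows, the one at chr19:14529222-14529521 held no match and the one at chr19:14517888-14518187 held 1, just after the start. The motif reads the same on both strands. It occurred in 6.769% of the 35116 promoter windows of the table. The window of DNAJA1 (chr9:33025023-33025322, plus strand) held 1 match 198 bases before the start and another just after the start, which overlapped a match to TTCNNGAA, the other arrangement of a pair of units, to form 3 units in a row. TTCNNGAA alone occurred in 7.737% of windows, either motif in 13.49% and 3 units in 0.4898%. Neither motif was found in the windows of HSPA2 (chr14:64540491-64540790, plus strand) and DNAJA3 (chr16:4425618-4425917, plus strand). These matches describe the letters only, and binding was not measured.

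Each oligonucleotide was printed as 4 spots per array, and 94 of the 96 member spots met the filters, which asked for a signal at least 2 times the local background in both channels, a spot below saturation and an even background. The spots left out were 1 of HSPA1B VM_H200001719 on ECT 1 and 1 of DNAJA1 on EGT 1. All 6 member oligonucleotides were therefore measured on all 4 arrays, as were 1164 oligonucleotides in all. By array, ECT 1 measured 1478 oligonucleotides, ECT 2 measured 1208, EGT 1 measured 1393 and EGT 2 measured 1537. The value given for an oligonucleotide on an array is the median log2 ratio, exposed over untreated, of its kept spots. Background correction and loess came first, and loess made the value relative to spots of like intensity on that array. Over the 1164 oligonucleotides, log2 ratios of the arrays correlated with r from 0.405 to 0.747, the highest being between ECT 1 and EGT 2 and not within a pulse type. EGT 1 held 4 spots with a local background above 1000, which were left out before background correction. The median absolute deviation of the EGT 1 log2 ratios was 0.18 without them and 0.03 with them, and 0.19 to 0.24 on the other 3 arrays. The values with them are given where they end a call. Of the melanocyte markers, all 7 in the array's annotation were above background. Their median Cy5 signals of exposed cells were 6.24 to 106 times and their median Cy3 signals of untreated cells 15.3 to 370 times background. Among these markers were MLANA, TYR and SOX10. Markers of other cell types gave signals too, and some were brighter than every melanocyte marker. The epithelial genes KRT19 and CDH1 read 1225 and 198 times background in exposed cells and 1647 and 409 times in untreated cells. The fibroblast gene DCN read 180 times in exposed and 415 times in untreated cells for its oligonucleotide VM_H300018456. Its other oligonucleotides read 67.9 and 161 times (VM_H300021659) and 2.11 and 3.4 times (VM_H300021751), the last near background. Others, such as CD4 and CDH5, were near background, at 1.39 and 1.68 times in exposed cells. The T cell gene CD28 read 23.9 times background in exposed cells and 115 times in untreated cells, and its mean log2 ratio of −0.79 passed the test (limma, adjusted p = 0.0253). Whether such signals came from these transcripts or from cross-hybridisation was not tested.

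HSPA1B encodes a stress-inducible HSP70 of the cytosol and nucleus, and its oligonucleotide VM_H200001719 gave the highest mean log2 ratio of the 6. Its log2 ratios were 0.67 on ECT 1, 0.74 on ECT 2, 0.52 on EGT 1 and 0.69 on EGT 2, above 0 on all 4 arrays. The values ranked 29th, 3rd, 7th and 14th from the top of all oligonucleotides measured on ECT 1, ECT 2, EGT 1 and EGT 2. The scanner intensities behind these ratios were low. The median Cy5 intensity of exposed cells was 169 on ECT 1, 127 on ECT 2, 99.5 on EGT 1 and 200.5 on EGT 2, and the median Cy3 intensity of untreated cells was 253, 111, 136.5 and 149 on the same arrays. On ECT 1 and EGT 1 the Cy5 spots were thus dimmer than the Cy3 spots, as most spots there were. The median unadjusted log2 of Cy5 over Cy3 was −1.51 over all kept spots of ECT 1, −0.72 on ECT 2, −1.05 on EGT 1 and −0.33 on EGT 2, against −0.80, 0.24, −0.44 and 0.49 for this oligonucleotide. On every array it lay above the typical spot before any normalisation. So did the dim DNAJA1 oligonucleotide, at −1.34, −0.26, −1.01 and 0.14 on the same arrays. This comparison does not allow for spot intensity.

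**Figure D1:**
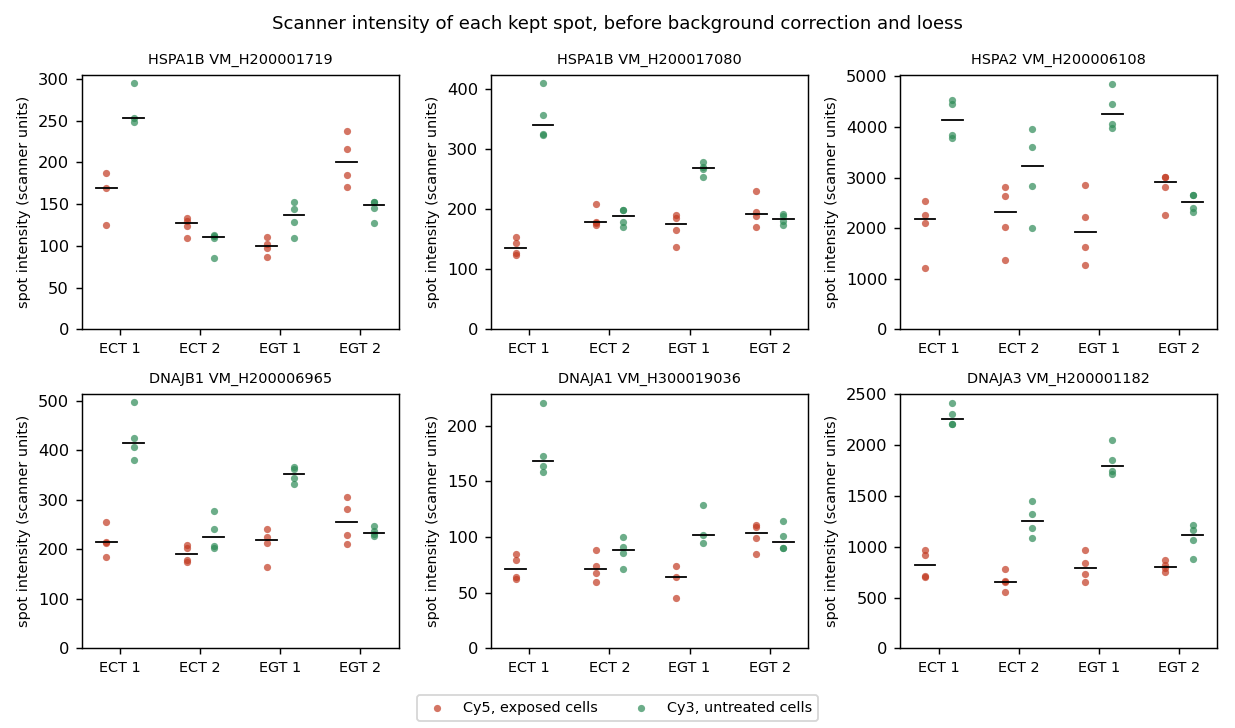
Scanner intensity (vertical axis, linear from 0) of each kept spot of the 6 member oligonucleotides on the 4 arrays, with Cy5 of exposed cells left of Cy3 of untreated cells and black lines at the medians. HSPA2 and DNAJA3 were the brightest, with single HSPA2 spots up to 3018 in Cy5 and 4856 in Cy3, and Cy3 was the brighter channel of ECT 1 and EGT 1 for every member.

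The other HSPA1B oligonucleotide, VM_H200017080, was also above 0 on all 4 arrays, with log2 ratios of 0.26 on ECT 1, 0.59 on ECT 2, 0.44 on EGT 1 and 0.34 on EGT 2. It lay below VM_H200001719 on 4 of 4 arrays, by 0.25 ± 0.16 on the log2 scale (SD, n = 4). An exact two-sided permutation test over the 4 arrays gave p = 0.125, which is the smallest p that 4 arrays allow. The gap was 0.41 on ECT 1 and 0.08 on EGT 1. The oligonucleotide sequences were not used here, and transcripts of HSPA1A, which has no oligonucleotide of its own in the array's annotation, could bind to either HSPA1B oligonucleotide.

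HSPA2 is an HSP70 that is abundant in testis. Its oligonucleotide VM_H200006108 was the brightest of the 6 in both channels, with median Cy5 intensities of exposed cells from 1930 to 2912.5 and median Cy3 intensities of untreated cells from 2519 to 4252. It also varied most between arrays. The log2 ratios were 0.73 on ECT 1, 0.31 on ECT 2, −0.06 on EGT 1 and 0.66 on EGT 2, so that each pulse type had 1 array near 0.7 and 1 array well below it. On ECT 1 the 4 spots read 1.05, 0.81, 0.64 and −0.21, with a spot SD of 0.55. The 4 spots of ECT 2 read within 0.29 to 0.34.

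DNAJB1 is the major heat-inducible HSP40 J protein of the cytosol and nucleus. Its oligonucleotide VM_H200006965 had log2 ratios of 0.61 on ECT 1, 0.36 on ECT 2, 0.44 on EGT 1 and 0.45 on EGT 2. The lowest of its 16 spots over the arrays was 0.01, so no spot fell below 0. Median Cy5 intensities of exposed cells ran from 190.5 to 255.5 and median Cy3 intensities of untreated cells from 224.5 to 415.5. The values of the 2 EGT arrays lay between those of the 2 ECT arrays.

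DNAJA1 is a farnesylated J protein that serves cytosolic HSP70 in folding and protein import into mitochondria. Its oligonucleotide VM_H300019036 gave log2 ratios of 0.11 on ECT 1, 0.27 on ECT 2, 0.04 on EGT 1 and 0.33 on EGT 2, all above 0 but with the EGT 1 value close to it. It was the dimmest of the 6. Its median Cy5 signal of exposed cells was 3.80 to 6.36 times background, and its Cy3 signal of untreated cells 6.32 to 11.6 times.

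DNAJA3 is the J protein of the mitochondrial HSP70. Its oligonucleotide VM_H200001182 had log2 ratios of 0.15 on ECT 1, −0.08 on ECT 2, −0.06 on EGT 1 and 0.03 on EGT 2, on both sides of 0 in each pulse type. It was well measured, with median Cy5 intensities of exposed cells from 654 to 816.5 and median Cy3 intensities of untreated cells from 1114.5 to 2258.5.

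**Figure D2:**
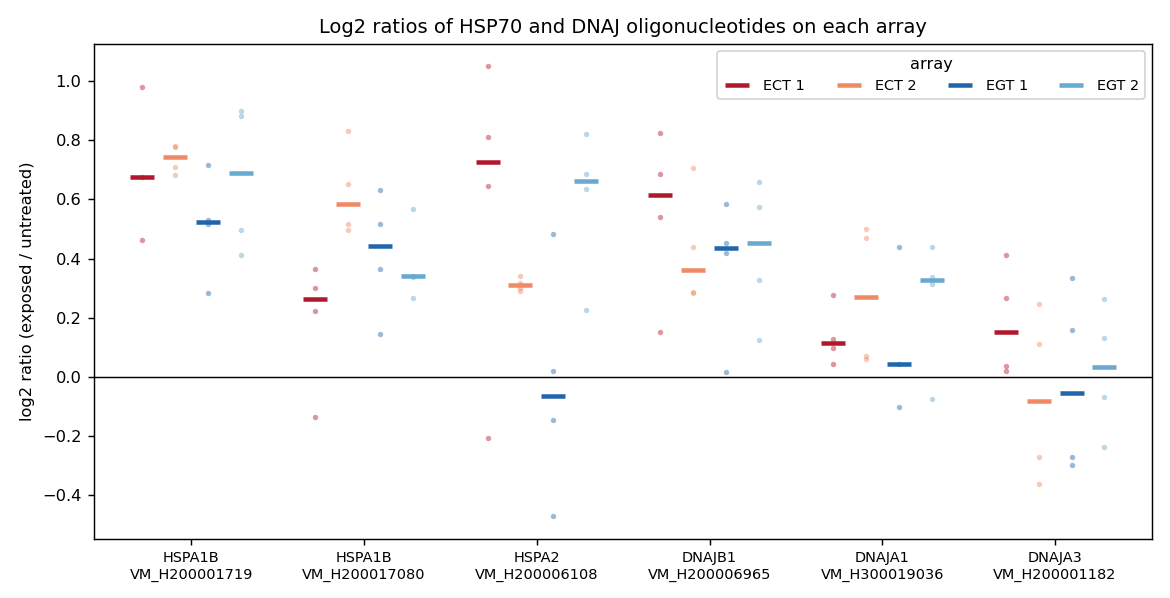
Log2 ratio of exposed over untreated cells (vertical axis) for the 6 member oligonucleotides on ECT 1, ECT 2, EGT 1 and EGT 2, with bars at the median of the kept spots and small points for single spots. Both HSPA1B oligonucleotides, DNAJB1 and DNAJA1 had all 4 bars above 0, the HSPA2 bars spread from −0.06 to 0.73, and the DNAJA3 bars lay from −0.08 to 0.15.

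Of the 24 member values on single arrays, 21 were above 0, with HSPA1B counted by both its oligonucleotides. These values come from 6 oligonucleotides on the same 4 arrays and are not independent. The matching share of single-array values over all oligonucleotides was not counted. By the mean over the 4 arrays, all 6 members were above 0, against 47.8% of the 1164 oligonucleotides. The oligonucleotides above 0 on all 4 arrays were 4 of the 6 members, against 207 of the 1164 oligonucleotides, or 17.8%. The mean log2 ratio over the 4 arrays had a median of 0.41 over the members, with HSPA1B entering by both oligonucleotides, and of −0.01 over all oligonucleotides. The members were chosen with earlier results of these data known, and the study had already listed HSPA1B and DNAJB1 from these arrays. These shares and medians therefore describe the members and do not test them as a group.

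The first comparison asked what ECT pulses changed against untreated cells. HSPA1B VM_H200001719 had the highest member mean, 0.71 ± 0.05 (SD, n = 2), or 1.63-fold, ranking 8th from the top of 1176 oligonucleotides measured on both ECT arrays. HSPA2 averaged 0.52 ± 0.30, DNAJB1 0.49 ± 0.18 and HSPA1B VM_H200017080 0.42 ± 0.23. DNAJA1 averaged 0.19 ± 0.11 and DNAJA3 0.03 ± 0.16. In limma, fitted over all arrays with Benjamini-Hochberg adjustment, 0 of the 6 members passed an adjusted p of 0.05, and 0% of the oligonucleotides tested passed it in that direction. The adjusted p was 0.127 for HSPA1B VM_H200001719 and 0.190 for DNAJB1. At an unadjusted p under 0.05, 4 of the 6 members were higher, against 6.72% of all oligonucleotides. They were both HSPA1B oligonucleotides, HSPA2 and DNAJB1. By a rule taken from the wording of the study's methods, at least 1.5-fold on both arrays of a pulse type, which may not be how its gene lists were made, 1 member, HSPA1B VM_H200001719, was higher after ECT pulses, against 0.340% of all oligonucleotides.

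The same question was asked for EGT pulses, and the same HSPA1B oligonucleotide had the highest member mean. HSPA1B VM_H200001719 averaged 0.61 ± 0.12 (SD, n = 2), or 1.52-fold, ranking 9th from the top of 1327 oligonucleotides. DNAJB1 averaged 0.44 ± 0.01, HSPA1B VM_H200017080 0.39 ± 0.07 and HSPA2 0.30 ± 0.51, where the SD exceeded the mean. With the 4 high-background spots of EGT 1 kept, HSPA1B VM_H200001719 averaged 0.38, DNAJB1 0.28 and HSPA1B VM_H200017080 0.21. DNAJA1 averaged 0.18 ± 0.20 and DNAJA3 −0.01 ± 0.06. Again 0 of the 6 members and 0% of all oligonucleotides passed the adjusted p in that direction (limma). The adjusted p was 0.225 for HSPA1B VM_H200001719 and 0.229 for DNAJB1. At an unadjusted p under 0.05, 3 of the 6 members were higher, namely both HSPA1B oligonucleotides and DNAJB1, against 6.41% of all. By the 1.5-fold rule 0 members were higher, against 0.151% of all. HSPA1B VM_H200001719 missed it on EGT 1 only, where it read 0.52 against the limit of 0.58 on the log2 scale.

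With both pulse types averaged, which uses all 4 arrays, 1 of the 6 members was higher at an adjusted p of 0.05, against 0.430% of the 1164 oligonucleotides. It was HSPA1B VM_H200001719, which rose by 0.66 on the log2 scale (SE 0.07, 95% interval 0.48 to 0.83, n = 4), or 1.58-fold (limma, adjusted p = 0.0253), and was higher on 4 of 4 arrays. It ranked 7th from the top. DNAJB1 followed with 0.47 (SE 0.08, limma adjusted p = 0.0543) and HSPA1B VM_H200017080 with 0.41 (SE 0.08, limma adjusted p = 0.0560), both just past the limit. By limma p they ranked 11th and 49th of the 1164 oligonucleotides, so other oligonucleotides lay as near the limit. HSPA2 had an equally large mean of 0.41 with a larger SE of 0.14 (limma, adjusted p = 0.127). The HSPA2 mean was 0.23 without EGT 2 and 0.59 without EGT 1. With arrays centred on their median in place of loess it was 0.11, and 0.20 for ECT and 0.03 for EGT pulses. DNAJA1 averaged 0.19 (limma, adjusted p = 0.193), and DNAJA3 averaged 0.01 with a 95% interval of −0.17 to 0.19 (limma, adjusted p = 0.927). At an unadjusted p under 0.05, 4 of the 6 members were higher, against 12.0% of all.

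The HSPA1B call was sensitive to the processing. With the 4 EGT 1 spots of high background kept, its mean was 0.54 and the limma adjusted p 0.139, and with no filter on spots 0.63 and 0.0932. It was also lost without ECT 1 (0.68, limma adjusted p = 0.0933), EGT 1 (0.70, limma adjusted p = 0.169) or EGT 2 (0.62, limma adjusted p = 0.283), and was kept without ECT 2. The mean was above 0 under all 16 alternatives, from 0.54 to 0.94. Where each pulse type kept both arrays, the limma adjusted p ran from 1.2e-05 to 0.139. The smallest came with the replicate number added to the fit as a block, where 139 of all 1164 oligonucleotides passed in either direction. Leaving out the high-background spots was decided with earlier results of these data known, in which this oligonucleotide passed the threshold only without them.

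**Figure D3:**
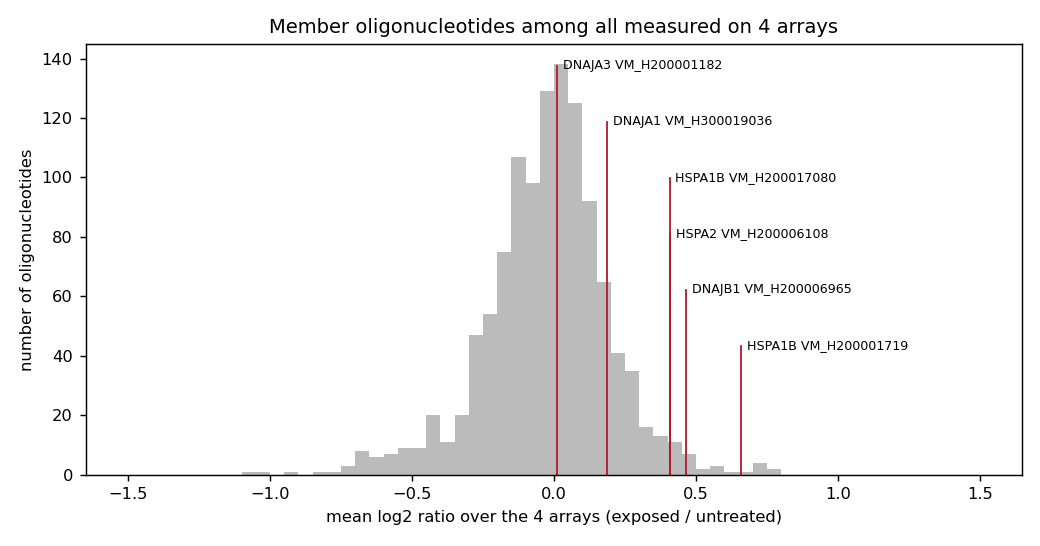
Number of oligonucleotides (vertical axis) by mean log2 ratio over the 4 arrays (horizontal axis) for the 1164 oligonucleotides measured on all of them, with red lines at the 6 members (line heights only separate the names). HSPA1B VM_H200001719 at 0.66 lay in the sparse right end, HSPA1B VM_H200017080, HSPA2 and DNAJB1 between 0.41 and 0.47, and DNAJA3 at 0.01 in the centre.

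The values of the authors' own normalised table were similar in order. In that table HSPA1B VM_H200001719 read 0.82 on ECT 1, 0.97 on ECT 2, 0.65 on EGT 1 and 0.84 on EGT 2, and thus passed 1.5-fold on both arrays of each pulse type. It was the only member to do so, 1 of 6 after ECT pulses against 0.553% of all oligonucleotides, and 1 of 6 after EGT pulses against 0.166%. DNAJB1 read 0.61 on ECT 1, 0.51 on ECT 2, 0.41 on EGT 1 and 0.49 on EGT 2 there. In a limma fit on these values the mean over both pulse types was 0.82 for HSPA1B VM_H200001719 (limma, adjusted p = 0.0305) and 0.51 for DNAJB1 (limma, adjusted p = 0.0370), so that DNAJB1 was called there too. In that fit 22 of 1263 oligonucleotides were called higher, against 5 of 1164 above.

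The difference between the pulse types was then tested directly. No member passed this test, with 0 of 6 called and 0% of all oligonucleotides called in either direction (limma), while 31 of the 1164 oligonucleotides had an unadjusted p under 0.05. ECT minus EGT pulses was 0.10 for HSPA1B VM_H200001719 (95% interval −0.25 to 0.45), 0.03 for VM_H200017080 (−0.37 to 0.43) and 0.04 for DNAJB1 (−0.32 to 0.41). For HSPA2 it was 0.22, with the widest interval, −0.44 to 0.88. For DNAJA1 it was 0.01 (−0.39 to 0.40) and for DNAJA3 0.05 (−0.32 to 0.41). These intervals leave room for differences of about the size of the mean ratios, and 2 arrays per pulse type do not show that the pulses acted alike.

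**Figure D4:**
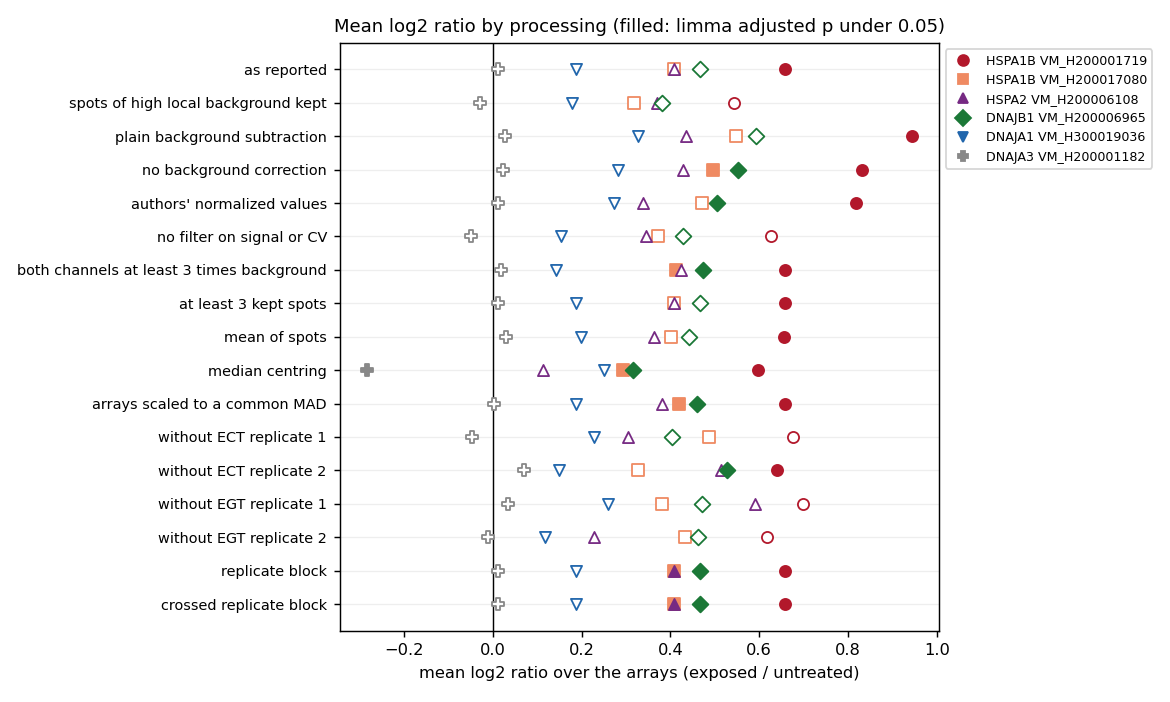
Mean log2 ratio over the arrays (horizontal axis) of the 6 member oligonucleotides as reported and under each of 16 other ways of processing (rows), filled where the limma adjusted p was under 0.05. HSPA1B VM_H200001719 stayed between 0.54 and 0.94, and DNAJA3 ran from −0.28 under median centring to 0.07.

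The members were set beside the other chaperone and heat shock genes. Of 79 such genes listed, 21 had an oligonucleotide in the array's annotation, which gave no symbol to 1059 of the 3048 oligonucleotides. Other listed genes may be among those without a symbol. The 21 genes had 23 oligonucleotides, of which 13 for 12 genes were measured on all 4 arrays. Their mean log2 ratios were above 0 for 9 oligonucleotides and below 0 for 4, with a median of 0.08 against 0.41 for the members. Both lists were chosen with earlier results of these data known, so the 2 medians are a description only. None of the 13 passed an adjusted p of 0.05 (limma, 0 of 13), against 8 of the 1164 oligonucleotides in either direction. At an unadjusted p under 0.05, 4 were higher, against 12.0% of all, and 1 was lower. In either direction, 327 of the 1164 had such a p. The highest of the 13 were HSP90AB1, the constitutive cytosolic HSP90, at 0.37 (limma, adjusted p = 0.119) and BAG5, a cofactor that binds HSP70, at 0.27 (limma, adjusted p = 0.0919). The lowest were HSF4, a heat shock factor known from the lens, at −0.49 (limma, adjusted p = 0.0886) and BAG4, another BAG domain protein, at −0.26 (limma, adjusted p = 0.184).

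The genes nearest in role were few. HSPA5, the HSP70 of the endoplasmic reticulum, was measured by its oligonucleotide VM_H200006093. The log2 ratios were 0.07 on ECT 1, 0.18 on ECT 2, 0.13 on EGT 1 and −0.01 on EGT 2, with a mean of 0.09. Its other oligonucleotide, VM_H300000330, was not measured on any array. The median signals of VM_H300000330 were 1.69 times background in exposed and 3.22 times in untreated cells, against 25.2 and 50.3 times for VM_H200006093. The J proteins DNAJA2, DNAJC3 and SEC63 were not measured on any array, with median Cy5 signals of exposed cells 1.28 to 1.57 times background. Of the 7 HSP70 cofactor genes in the array's annotation 4 were measured throughout, with means on both sides of 0 and a median of 0.07. BAG5 and BAG1, both BAG domain proteins that act on HSP70, were above 0 on all 4 arrays, BAG1 with a mean of 0.23 (limma, adjusted p = 0.108), whereas BAG4 and ST13, the HSP70-interacting protein Hip, were below 0 on all 4, ST13 with a mean of −0.09. Genes that encode the other main HSP70s, HSPA8 and HSPA9, had no oligonucleotide in the array's annotation.

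The oligonucleotides whose 4 values lay nearest to those of each member, by root mean square (RMS) difference on the log2 scale over the 4 arrays, were found among 998 or 999 with a gene symbol. Nearest to HSPA1B VM_H200001719 were CCNF at 0.13, GNRHR at 0.13 and CDC25C at 0.21, with no oligonucleotide within 0.1. Nearest to HSPA1B VM_H200017080 were JUND at 0.11, FASTK at 0.13 and ARHGAP1 at 0.14. The distance between the 2 HSPA1B oligonucleotides was 0.28, larger than either had to its 3 nearest. For HSPA2 the nearest were CCND1 at 0.10, HSP90AB1 at 0.12 and EIF4G2 at 0.15. Near DNAJB1 were AOC3 at 0.07, PITPNB at 0.08 and PKIA at 0.09. DNAJA1 and DNAJA3 lay where many oligonucleotides lie, with 29 and 81 within 0.1. The nearest were UNG, COL3A1 and CHI3L2 for DNAJA1, and AOAH, LGALS9 and the chaperonin subunit CCT8 for DNAJA3. Among the members, the closest pair of different genes was HSPA1B VM_H200017080 and DNAJB1 at 0.22, and the farthest was HSPA1B VM_H200001719 and DNAJA3 at 0.66.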

How the data were processed

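The deposited spot files hold scanner intensity per spot, as the authors' scanner software gave it, and the authors' table holds log2 ratios that they had filtered and normalised. Direction was taken from the dyes in the labels (Cy5 exposed, Cy3 untreated). With R 4.3.3 and limma 3.58.1, spots with a local background above 1000 were left out, background was corrected by normexp (offset 50), and spots were kept at an intensity up to 65000, a signal at least 2 times background and a ratio of background SD to spot intensity up to 0.3. Loess (span 0.3, 4 iterations) followed within each array, and an oligonucleotide took the median of at least 2 kept spots. All 4 arrays entered 1 limma fit of group means (lmFit and eBayes, two-sided, Benjamini-Hochberg over all oligonucleotides tested, threshold 0.05). The number of arrays limits the precision. Named were all member oligonucleotides, the 3 nearest to each, and the 2 highest and 2 lowest other chaperones. Other genes were named as markers or for their role. The members, lists, filters and tests were chosen with earlier results of these data known. Gene symbols came from the platform annotation, which gave 1989 oligonucleotides a symbol. Promoters came from RefSeq on GRCh38.p14. Scripts were tested on simulated data. Alternatives changed the background correction, filters, summary, normalisation, array set, pairing and value table.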

Additional observations from a re-analysis of the deposited data

How the results depend on the processing

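Over 396 combinations of member oligonucleotide, comparison and alternative, 347 kept direction and side of the threshold, 5 lost a call, 22 gained one and 22 changed sign. The 5 lost calls were all of HSPA1B VM_H200001719 for the mean of both pulse types. The count of members called there, 1 as reported, was 0 with high-background spots kept, 0 with no filter, 2 in the authors' table, 3 with no background correction, 3 at 3 times background, 3 with arrays scaled to a common spread, 4 with median centring (3 higher, and DNAJA3 lower at −0.28, limma adjusted p = 0.0348), and 0 to 2 with 1 array left out. Calls over all oligonucleotides moved with it, from 8 of 1164 as reported to 60 of 1263 in the authors' table, 55 of 1164 with no background correction, 68 of 908 at 3 times background, 76 of 1164 with scaled arrays, 401 of 1164 with median centring (115 higher, 286 lower) and 83 of 1289 without ECT 2, and 0 wherever no member was called. For ECT pulses, 0 as reported, it was 1 with median centring (117 of 1176 of all). For EGT pulses, 0 as reported, it was 1 in the authors' table (9 of 1805 of all) and 1 with median centring (92 of 1327 of all). The replicate number as a block gave 4 for the mean, 2 for ECT and 1 for EGT pulses, beside 139, 70 and 41 of 1164 over all oligonucleotides. Deviations of same-numbered arrays correlated at −0.44 over 1164 oligonucleotides, so these arrays did not deviate together. With 2 arrays per pulse type, crossed numbers must give the opposite value, 0.44. The correlation therefore cannot show whether same-numbered arrays were handled together. With numbers crossed, a choice made after seeing the data, the block gave 4 for the mean and 0 for each pulse type, beside 134, 0 and 0 of 1164. By the 1.5-fold rule, 1 member after ECT pulses became 0 with median centring and 0 with scaled arrays, and 0 after EGT pulses became 1 with plain subtraction, 1 with no background correction, 1 in the authors' table and 1 with scaled arrays.

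Changes of sign were near 0 in most cases. DNAJA3 in the mean was −0.0287 with high-background spots kept and −0.0481 with no filter. After ECT pulses it was −0.0227 with no filter and −0.29 with median centring, and after EGT pulses 0.0039 with plain subtraction and 0.0011 with the mean of spots. ECT minus EGT pulses was −0.0453 for DNAJA1 at 3 times background, −0.0172 for DNAJA3 with median centring and −0.0163 for DNAJB1 with scaled arrays. With 1 array left out, DNAJA3 ran from −0.0466 to 0.0695 in the mean, from −0.0811 to 0.15 for ECT and from −0.0561 to 0.0321 for EGT pulses, and HSPA2 from −0.0640 to 0.66 for EGT pulses. ECT minus EGT pulses then ran from −0.13 to 0.19 for HSPA1B VM_H200017080, −0.14 to 0.58 for HSPA2, −0.0810 to 0.17 for DNAJB1, −0.13 to 0.15 for DNAJA1 and −0.0691 to 0.16 for DNAJA3. Where an arm kept 1 array, that array was assumed to vary like the others. The cause was not tested, except that leaving out arrays leaves fewer values. Median signals of HSPA1B, DNAJB1 and DNAJA1 were 3.80 to 29.7 times background. HSPA2, the brightest, had the largest SE.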

Other observations

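HSPA2 and HSP90AB1 had the same order of arrays. HSP90AB1 read 0.77 on ECT 1, 0.24 on ECT 2, 0.02 on EGT 1 and 0.45 on EGT 2. CCND1, a cyclin of cell cycle entry and the nearest gene to HSPA2, read 0.86 on ECT 1, 0.22 on ECT 2, −0.15 on EGT 1 and 0.60 on EGT 2. CD63, a gene of the melanocyte marker list, was in the reverse order, at −1.10 on ECT 1, −0.38 on ECT 2, −0.37 on EGT 1 and −0.92 on EGT 2. Its ECT 2 and EGT 1 values were nearly equal. The marker list was not uniform. S100B was also lowest on ECT 1 and EGT 2, at −1.14 and −0.79. TYRP1 was highest on these arrays, at 0.58 and 0.75, and MITF was above 0 on every array. ECT 1 and EGT 2 were also the arrays that correlated best.

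HSPE1, the mitochondrial co-chaperonin, was measured on ECT 1 and EGT 2 only, where it read −0.95 and −0.88. BAG3, a cofactor of HSP70 that heat induces, was measured on the same arrays only, at 0.51 and 0.12. Its median signals were 2.15 times background in exposed and 2.67 times in untreated cells, close to the filter of 2 times. Spot 4 of HSPA2 had the lowest Cy5 intensity of its 4 on 3 arrays, with 1205 on ECT 1, 1375 on ECT 2 and 1265 on EGT 1.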
